A study of Mus musculus with 12 samples.

Results

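Pnpla3, Hsd17b13, Tm6sf2, Mboat7, Gckr, Trib1 and Erlin1 are the mouse orthologs of 7 human genes near which inherited variants are linked to fatty liver disease or to liver enzyme levels. They were taken by gene name from the 54532 genes counted in each library, and all 7 were present and passed the filter on low counts in every comparison. RNA was sequenced from whole livers of male PPARγ flox/flox mice that were injected once, intraperitoneally, at 8 weeks of age with a serotype 8 adeno-associated virus. The virus was either AAV8.TBG.PI.Cre.rBG, which expresses Cre recombinase (labelled PPARγ-KO), or AAV8.TBG.PI.eGFP.WPRE.bGH, which expresses a green fluorescent protein (littermate controls, labelled WT). The TBG promoter is active in hepatocytes, so the other liver cells were not a target of the deletion. All mice then received a fast-food diet (FFD), rich in saturated fat, cholesterol and sucrose with fructose and glucose in the drinking water, for 2 or 5 months. There were 3 libraries for each genotype and duration, 12 in total, and every group carried the floxed alleles, the virus and the diet. No chow-fed mice were among these samples, and the labels did not say which animal each library came from, so p-values measure the spread between libraries.

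The proteins of these genes act at different steps of hepatocyte lipid and glucose handling. PNPLA3 is a lipase-like protein of the lipid droplet surface that binds ABHD5, the activator of the main triglyceride lipase PNPLA2 (ATGL), and its gene is driven by SREBP-1c and ChREBP after feeding. HSD17B13 is a lipid droplet dehydrogenase found mostly in hepatocytes. TM6SF2 is an endoplasmic reticulum membrane protein that helps to load lipid onto the apolipoprotein B particles that the liver secretes. MBOAT7 attaches arachidonic acid to lysophosphatidylinositol. GCKR is a regulatory protein of hepatic glucose phosphorylation that acts in the nucleus. TRIB1 is a pseudokinase that brings the transcription factor C/EBPα to the ubiquitin ligase COP1. ERLIN1, with its partner ERLIN2, forms a membrane scaffold of the endoplasmic reticulum that takes part in protein degradation and in sterol control. PPARγ is a nuclear receptor that pairs with RXR and switches on lipid storage genes, and its level is known to rise in fatty liver.

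Libraries held 16367775 to 27452284 counts, and 4.702% to 6.437% of them came from mitochondrial genes. WT replicate 1 at 2 months stood furthest from its group, with a chi-square per gene of 31.7 and 27.6 against the other replicates, where other pairs of replicates lay between 2.44 and 17.5. Whole-gene RNA of Pparg was not lower under the PPARγ-KO label. At 2 months its normalized CPM read 38.8, 41.4 and 37.6 in WT, whereas the libraries labelled PPARγ-KO read 50.4, 66.5 and 52.0. At 5 months the WT libraries read 36.9, 41.4 and 37.1 and those labelled PPARγ-KO 86.5, 92.9 and 75.0. Pparg was thus higher under the PPARγ-KO label at both times (log2 fold change 0.52, edgeR adjusted p = 0.0309, and 1.15, edgeR adjusted p = 2.57e-06), and the call at 2 months was lost without any of 5 of the 6 libraries. The counts cover the whole gene and not the deleted part alone, so they give no check of the deletion. At the level of protein, the study reported from Western blots that PPARγ was lost in PPARγ-KO livers at both times. PPARγ-KO is used below as the name the labels give.

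Summed markers of hepatocytes (8 genes) ran from 57000 to 70900 CPM in WT and 74000 to 87700 CPM in PPARγ-KO libraries at 2 months, and from 54900 to 58700 against 73000 to 84600 at 5 months. At 5 months, 3 of the 8 were called higher in PPARγ-KO libraries, where 8.9% of all genes were called higher. At 2 months 0 of the 8 were called. Macrophage markers (5 genes) summed to 226 to 282 and 265 to 308 CPM in WT and PPARγ-KO libraries at 2 months, and to 477 to 531 and 238 to 326 at 5 months. Of the 5, 0 were called at 2 months and 4 were called lower in PPARγ-KO libraries at 5 months, beside 9.51% of all genes. Stellate cell markers (5 genes) summed to 388 to 410 against 303 to 330 CPM at 2 months and 417 to 473 against 362 to 404 at 5 months. Only 1 of these 5 was called at each time, lower in PPARγ-KO libraries, beside 1.78% and 9.51% of all genes. The adipocyte markers Adipoq, Lep and Plin1 summed to at most 0.118 CPM in any library. The part of these shifts in the results on the 7 genes was not tested. In whole liver, fewer cells of a type and less RNA per cell cannot be told apart.

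Levels between genes were compared per kilobase of exon. The length was that of all annotated exonic bases of a gene, such as 1548 for Pnpla3 (2 transcripts) and 8339 for Mboat7 (13 transcripts). The order of the genes depends on this length. Hsd17b13 was by far the most abundant of the 7 genes, with a mean of 248 CPM per kilobase over the 12 libraries, which put it at rank 185 of 15127 genes. Gckr followed at 54.8 CPM per kilobase (rank 864), and these were the first and second of the 7 genes in all 4 groups, with no overlap between them or with the gene below. Tm6sf2 (14.3), Erlin1 (13.0), Trib1 (9.39), Pnpla3 (7.86) and Mboat7 (4.89) lay closer together. In WT at 2 months, neighbours in the order Tm6sf2, Erlin1, Trib1, Pnpla3 and Mboat7 overlapped between libraries. In WT at 5 months the order was Erlin1, Tm6sf2, Trib1, Mboat7 and Pnpla3, and no neighbours overlapped. In PPARγ-KO libraries at 5 months, only Tm6sf2 and Erlin1 overlapped as neighbours, and at 2 months Tm6sf2 overlapped Pnpla3 and Pnpla3 overlapped Erlin1.

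**Figure D1:**
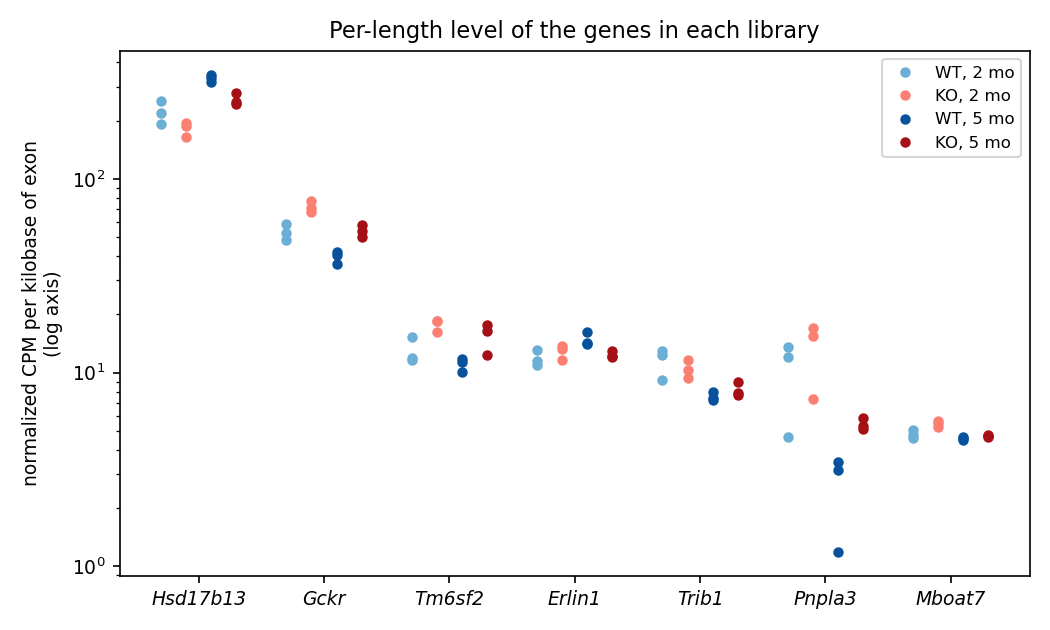
Normalized CPM per kilobase of exon on a log axis for the 7 genes, each point 1 library coloured by group. Hsd17b13 and Gckr stand above the other genes in all 4 groups, and Pnpla3 spans the widest range, from 1.19 to 17.1 CPM per kilobase.

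The files place Pnpla3 (ENSMUSG00000041653) at chr15:84167837-84187236 on the plus strand, Hsd17b13 (ENSMUSG00000034528) at chr5:103955440-103977410 on the minus strand, and Tm6sf2 (ENSMUSG00000036151) at chr8:70072924-70080066 on the plus strand of mm10. Mboat7 (ENSMUSG00000035596) lies at chr7:3677789-3693523 on the minus strand, Gckr (ENSMUSG00000059434) at chr5:31297443-31327314 on the plus strand, Trib1 (ENSMUSG00000032501) at chr15:59648350-59657099 on the plus strand, and Erlin1 (ENSMUSG00000025198) at chr19:44034944-44069785 on the minus strand. All are protein coding and have the same coordinates in GENCODE M21. Mboat7 shares 661 bases with Tsen34 on the opposite strand, 277 of them exonic in both genes, which is 3.32% of the exonic bases of Mboat7. Tsen34 had 533 to 985 counts and Mboat7 630 to 1179, and because the sources do not say whether counting used the strand, some reads of one may be counted on the other. Pnpla3 overlaps Mir6392, Gm20369 and Gm49513, which had at most 25, 11 and 5 counts in a library.

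Promoter windows of 300 bases (250 before and 50 after the start, RefSeq, GRCm38.p6) were matched by symbol for 5 of the 7 genes, in 7 windows. Shown here are the bases upstream of both the RefSeq start and the start in the files for Hsd17b13 and Gckr, the genes called between genotypes at 5 months in every refit of the counts, and for Pnpla3, whose fold change was the largest. Each is written 5′ to 3′ on the strand of its gene. Capitals mark a match to any motif searched, on either strand.
Hsd17b13 (chr5:103977411-103977638, minus strand): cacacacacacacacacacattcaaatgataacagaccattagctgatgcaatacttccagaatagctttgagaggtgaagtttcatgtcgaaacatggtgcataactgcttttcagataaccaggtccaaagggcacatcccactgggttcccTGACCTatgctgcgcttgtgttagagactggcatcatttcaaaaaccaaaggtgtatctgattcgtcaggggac
Gckr (chr5:31297313-31297442, plus strand): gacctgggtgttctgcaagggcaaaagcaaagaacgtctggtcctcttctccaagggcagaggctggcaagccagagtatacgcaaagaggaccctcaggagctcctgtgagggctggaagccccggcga
Pnpla3 (chr15:84167566-84167815, plus strand): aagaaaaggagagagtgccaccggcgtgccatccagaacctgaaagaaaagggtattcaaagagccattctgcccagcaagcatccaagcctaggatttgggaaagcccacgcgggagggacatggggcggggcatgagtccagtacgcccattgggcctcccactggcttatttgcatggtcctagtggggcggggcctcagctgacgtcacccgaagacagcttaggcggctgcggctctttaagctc

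The capitals in Hsd17b13 are AGGTCA, the core that many nuclear receptors bind, read on the opposite strand. These 6 letters were in 16.3% of all 32851 promoter windows and in 1 of the 7 windows of these genes. The exact DR1 repeat (AGGTCA, any base, AGGTCA), the form to which PPAR and RXR bind as a pair, was in none of the 7 windows and in 0.0396% of all. The sterol element TCACNCCAC was likewise in none of the 7 and in 1.24% of all. CACGTG, an E-box, was in 1 of the Erlin1 windows (7.15% of all), and GTTAAT, a core of HNF1 sites, was in the Gckr window (7.1% of all) outside the stretch shown. CAAAGTCCA (0.475% of all), TTGCGCAA (0.183%) and TATAAA (13.6%) were in none of the 7 windows. A missing match says only that these letters are not in the window.

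PPARγ-KO was compared with WT at each time, the question the study was built on. At 5 months, 5 of the 7 genes were called at an adjusted p below 0.05, where 18.4% of the 14138 genes tested were called. Pnpla3, Tm6sf2 and Gckr were higher in PPARγ-KO libraries (8.9% of all genes were called higher) and Hsd17b13 and Erlin1 lower (9.51%). At 2 months 1 of the 7, Gckr, was called, higher in PPARγ-KO libraries, where 3.56% of 14573 genes were called in either direction and 1.78% in each of the 2 directions. The median log2 fold change of the 7 genes was 0.18 at 2 months and 0.125 at 5 months, beside -0.00483 and -0.00577 over all genes tested. Libraries of the 2 genotypes did not overlap for 3 of the 7 genes at 2 months and for 6 of the 7 at 5 months, where 24.1% and 34.8% of all genes did not overlap. Of the 5 calls at 5 months, those of Gckr and Hsd17b13 held in all 13 refits under other settings, although Hsd17b13 did not reach 1.3-fold, and those of Pnpla3, Tm6sf2 and Erlin1 were each lost when some libraries were left out.

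**Figure D2:**
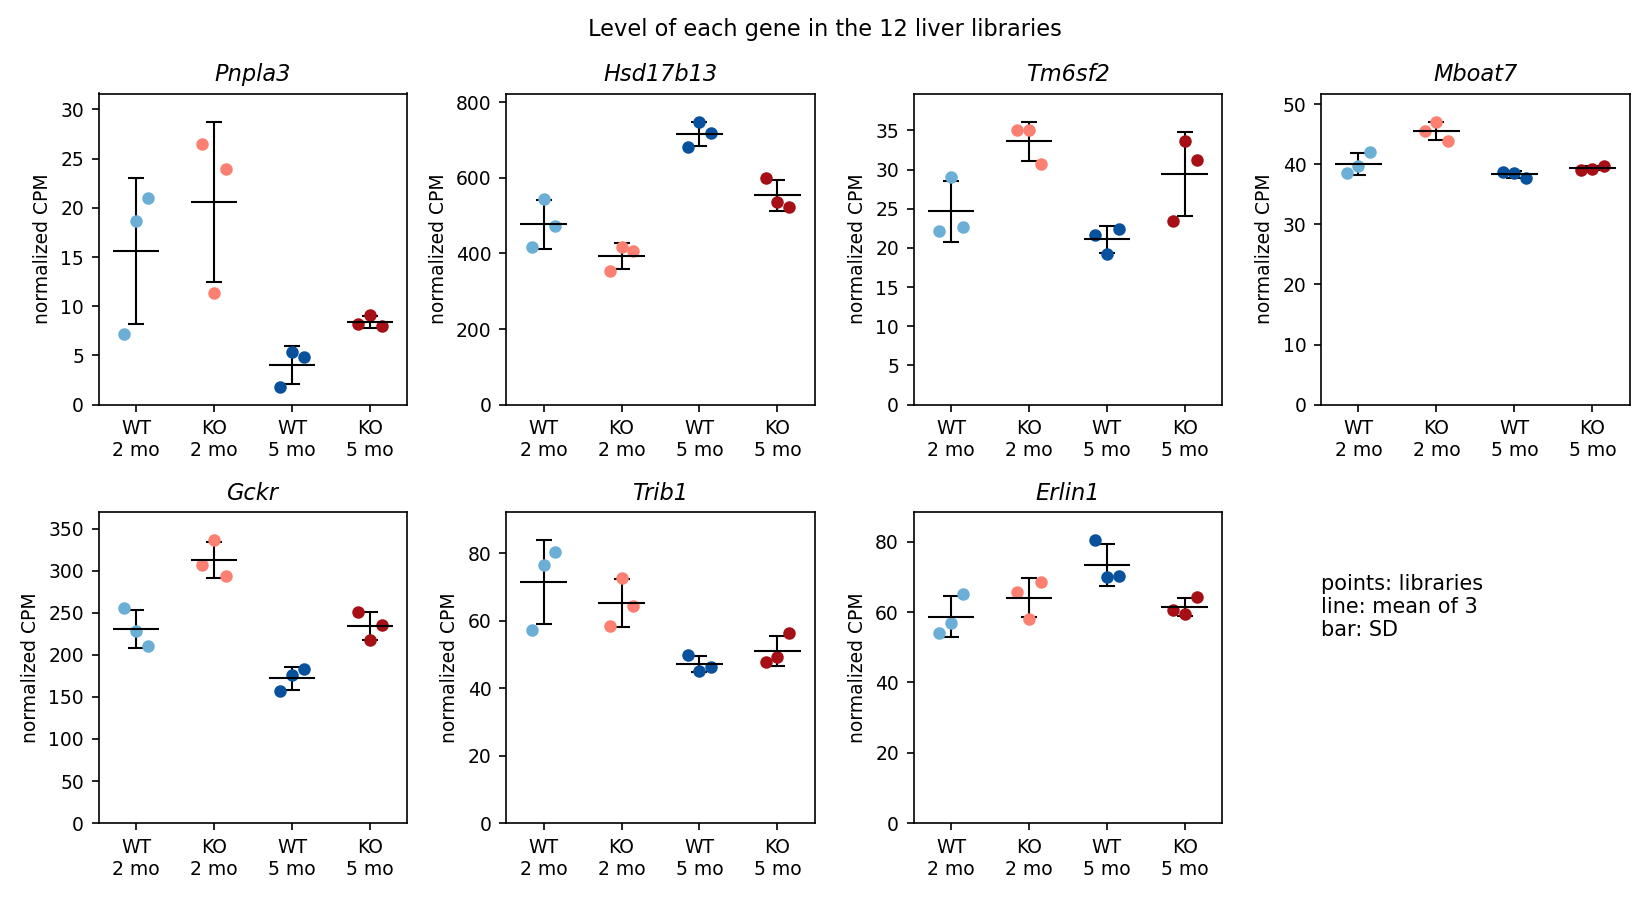
Normalized CPM of each gene in each of the 12 libraries, with the mean and SD of the 3 libraries of a group. Gckr is higher in all PPARγ-KO libraries than in all WT libraries of the same time, and Hsd17b13 is highest in WT at 5 months (683 to 747 CPM). Relative to its mean, Pnpla3 varies most in every group except PPARγ-KO at 5 months.

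Gckr, whose protein restrains hepatic glucose phosphorylation, was higher in PPARγ-KO livers at both times. Its normalized CPM was 255, 228 and 210 in WT and 307, 336 and 294 in PPARγ-KO libraries at 2 months. At 5 months it was 157, 176 and 183 in WT and 251, 217 and 235 in PPARγ-KO libraries. Every PPARγ-KO library lay above every WT library of its time. The log2 fold change was 0.43 ± 0.0924 (SE, n = 3 against 3) at 2 months (edgeR adjusted p = 0.0334) and 0.46 ± 0.0769 at 5 months (edgeR adjusted p = 0.00121), that is 1.35-fold and 1.37-fold. The call at 2 months did not survive scaling by library size only (edgeR adjusted p = 0.0527), nor the omission of any of 5 of the 6 libraries, WT replicate 1 being the exception, while its fold change stayed between 0.36 and 0.51 on the log2 scale in the 13 refits.

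Hsd17b13, the lipid droplet dehydrogenase, was lower in PPARγ-KO livers at 5 months. Normalized CPM was 683, 747 and 719 in WT and 600, 537 and 524 in PPARγ-KO libraries, with no overlap. The log2 fold change was -0.36 ± 0.0753 (SE, edgeR adjusted p = 0.00493), a level 0.779 times that of WT. At 2 months the values were 416, 544 and 472 in WT and 354, 418 and 406 in PPARγ-KO libraries. Only WT replicate 1, the library furthest from its group, reached into the PPARγ-KO range, and the log2 fold change of -0.28 ± 0.11 was not called (edgeR adjusted p = 0.202). Without that library it was -0.37 (edgeR adjusted p = 0.0235). The 13 refits gave -0.37 to -0.18, and 11 of them left the change uncalled.

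Pnpla3 showed the largest fold change of the 7 genes at 5 months. Its coefficient of variation was the largest of the 7 in every group except PPARγ-KO at 5 months, where it was 6.99%. Normalized CPM at 5 months was 1.84, 5.36 and 4.85 in WT and 8.21, 9.07 and 7.95 in PPARγ-KO libraries, from 31 to 177 counts. All PPARγ-KO libraries lay above all WT libraries, and WT replicate 1 was well below the other replicates. The log2 fold change was 1.07 ± 0.313 (SE, edgeR adjusted p = 0.0488), or 2.1-fold, just past the threshold. In 6 of 13 refits the call was lost, including a joint fit over the 12 libraries (edgeR adjusted p = 0.257) and the omission of WT replicate 3 or of any PPARγ-KO replicate, with a log2 fold change of 0.73 to 1.32 when a library was left out. At 2 months Pnpla3 was at 7.2, 18.7 and 21.0 CPM in WT and 26.5, 11.3 and 24.0 CPM in PPARγ-KO libraries. The groups overlapped, the coefficients of variation were 47.4% and 39.5%, and the log2 fold change of 0.40 ± 0.525 had a 95% interval from -0.971 to 1.77 (edgeR adjusted p = 0.754), so a change of the size seen at 5 months was neither shown nor beyond the interval.

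Tm6sf2, which serves lipoprotein lipidation, was at 22.2, 29.1 and 22.7 CPM in WT and 35.0, 35.1 and 30.7 CPM in PPARγ-KO libraries at 2 months. At 5 months it was at 21.7, 19.2 and 22.4 CPM in WT and 23.4, 33.7 and 31.2 CPM in PPARγ-KO libraries. The genotypes did not overlap at either time, although PPARγ-KO replicate 1 at 5 months came close to WT. At 2 months the log2 fold change was 0.44 ± 0.117 (SE, edgeR adjusted p = 0.0696), not called. The 13 refits gave 0.36 to 0.58, and 4 of them called the gene higher in PPARγ-KO libraries. Among these 4 was the fit with the replicate number as a block (0.45, edgeR adjusted p = 0.0303). The labels do not say that same-numbered libraries are paired. At 2 months same-numbered libraries of the 2 genotypes correlated weakly, at 0.141 to 0.272, above the -0.251 to 0.0928 of differently numbered ones. At 5 months the log2 fold change of Tm6sf2 was 0.49 ± 0.129 (edgeR adjusted p = 0.0241), higher in PPARγ-KO libraries. This call was lost without any of 5 of the 6 libraries (edgeR adjusted p = 0.0548 to 0.0968).

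Erlin1, the scaffold protein, was at 54.0, 56.9 and 65.2 CPM in WT and 65.7, 58.0 and 68.6 CPM in PPARγ-KO libraries at 2 months, with overlap, and the log2 fold change was 0.13 ± 0.0925 (edgeR adjusted p = 0.512). At 5 months it was at 80.4, 69.9 and 70.2 CPM in WT and 60.7, 59.4 and 64.4 CPM in PPARγ-KO libraries. Every PPARγ-KO library was then below every WT library, and the log2 fold change was -0.25 ± 0.071 (edgeR adjusted p = 0.0282). The call was lost without WT replicate 1 (-0.18, edgeR adjusted p = 0.0612), without WT replicate 3, without PPARγ-KO replicate 1 or 2, and in a joint fit over the 12 libraries (edgeR adjusted p = 0.0569).

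Mboat7 and Trib1 were called at neither time. Mboat7, the phosphatidylinositol acyltransferase, was at 38.5, 39.7 and 42.1 CPM in WT and 45.6, 47.0 and 43.9 CPM in PPARγ-KO libraries at 2 months, without overlap, and the log2 fold change of 0.18 ± 0.0728 did not pass (SE, edgeR adjusted p = 0.214). At 5 months the WT values were 38.7, 38.6 and 37.7 CPM and the PPARγ-KO values 39.1, 39.2 and 39.7 CPM. These too did not overlap, but the lowest and highest of the 6 values were 37.7 and 39.7 CPM, and the log2 fold change was 0.048 (95% interval -0.0869 to 0.182, edgeR adjusted p = 0.661). Trib1, the pseudokinase, was at 57.1, 76.6 and 80.3 CPM in WT and 58.5, 72.7 and 64.4 CPM in PPARγ-KO libraries at 2 months. Its 5-month values were 49.8, 45.2 and 46.3 CPM in WT and 47.7, 49.2 and 56.2 CPM in PPARγ-KO libraries. The groups overlapped at both times, with log2 fold changes of -0.13 (95% interval -0.439 to 0.178, edgeR adjusted p = 0.661) and 0.12 (95% interval -0.0409 to 0.29, edgeR adjusted p = 0.304).

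**Figure D3:**
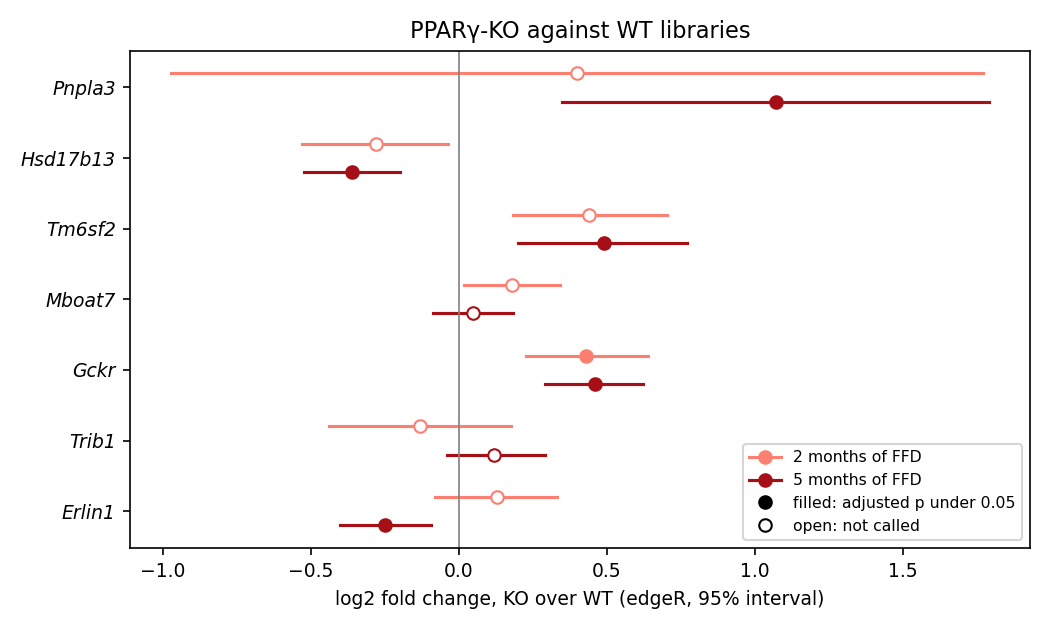
Log2 fold change of PPARγ-KO over WT libraries for each gene at 2 and 5 months of FFD, with the 95% interval of the edgeR fit; filled points passed an adjusted p of 0.05. Gckr is filled at both times (0.43 and 0.46), and the interval of Pnpla3 at 2 months is the widest, from -0.971 to 1.77.

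The fold change at 5 months was then set against that at 2 months in a fit of all 12 libraries. By edgeR none of the 7 genes was called, 1 had an unadjusted p under 0.05, and DESeq2 called none, where edgeR called 1.57% of 15127 genes. The gene with the unadjusted p under 0.05 was Erlin1, whose fold change was lower at 5 than at 2 months by a log2 difference of -0.39 ± 0.121 (SE, edgeR adjusted p = 0.131). For Gckr the difference was 0.013 with a 95% interval from -0.247 to 0.274. For Pnpla3 it was 0.66 with an interval from -0.95 to 2.27, too wide to place the difference on either side of 0. The genes called at 5 but not at 2 months were therefore not shown to respond differently at the 2 times.

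The WT and the PPARγ-KO libraries were each compared between 2 and 5 months of FFD. These comparisons use the same libraries as those between genotypes. Mice at 5 months were also older, and anything else that differed between the libraries of the 2 times cannot be told apart from the diet. In WT, 5 of the 7 genes passed, 2 with more and 3 with less at 5 months, where 46.4% of 14491 genes were called, 23.8% higher and 22.7% lower. In PPARγ-KO libraries 5 of the 7 were called, 1 higher and 4 lower, where 44.9% of 14478 genes were called, 22.7% higher and 22.2% lower. The median log2 fold change of the 7 genes was -0.224 in WT and -0.211 in PPARγ-KO libraries, beside -0.0128 and -0.0111 over all genes. The 2 times did not overlap for 5 of the 7 genes in each genotype, where 56.7% and 55.6% of all genes did not overlap.

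Hsd17b13 rose with time in both genotypes, from 477 ± 64.2 to 716 ± 31.9 CPM in WT (mean ± SD, n = 3) and from 392 ± 34.3 to 554 ± 40.7 CPM in PPARγ-KO libraries. Its log2 fold changes were 0.59 ± 0.106 (SE, edgeR adjusted p = 0.00117) and 0.49 ± 0.0782 (edgeR adjusted p = 0.00043). Gckr fell in both, from 231 ± 22.9 to 172 ± 13.0 CPM in WT and from 312 ± 21.2 to 234 ± 17.2 CPM in PPARγ-KO libraries, with log2 fold changes of -0.43 (edgeR adjusted p = 0.00411) and -0.42 (edgeR adjusted p = 0.000766). Gckr in PPARγ-KO libraries at 5 months was thus at 217 to 251 CPM, within the range of 210 to 255 CPM of WT at 2 months. Trib1 fell as well, from 71.3 ± 12.5 to 47.1 ± 2.39 CPM in WT (log2 fold change -0.60, edgeR adjusted p = 0.00218) and from 65.2 ± 7.15 to 51.0 ± 4.51 CPM in PPARγ-KO libraries (-0.36, edgeR adjusted p = 0.0085). The calls of these 3 genes held in both genotypes in all 13 refits, although Trib1 did not reach 1.3-fold in PPARγ-KO libraries.

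Pnpla3 had the largest change with time. It fell from 15.6 ± 7.41 to 4.02 ± 1.91 CPM in WT, a level 0.258 times that at 2 months (log2 fold change -1.95 ± 0.564, SE, edgeR adjusted p = 0.0386). In PPARγ-KO libraries it fell from 20.6 ± 8.14 to 8.41 ± 0.588 CPM (-1.30 ± 0.34, edgeR adjusted p = 0.0288). The times did not overlap in either genotype, but each call was lost without a filter on low counts (edgeR adjusted p = 0.116 in WT and 0.0884 in PPARγ-KO libraries) and without any of 5 of the 6 libraries. Leaving out a library gave -2.29 to -1.61 in WT and -1.58 to -1.09 in PPARγ-KO libraries. Erlin1 rose in WT, from 58.7 ± 5.81 to 73.5 ± 5.98 CPM (0.32 ± 0.0884, edgeR adjusted p = 0.0117, and 0.0536 when scaled by library size only), and was at 64.1 ± 5.49 and 61.5 ± 2.56 CPM in PPARγ-KO libraries (-0.064, edgeR adjusted p = 0.514). Mboat7 was called in PPARγ-KO libraries, from 45.5 ± 1.55 to 39.3 ± 0.359 CPM (-0.21, edgeR adjusted p = 0.0203), and that call was lost by DESeq2 (adjusted p = 0.0693) and without any of 4 of the 6 libraries. Tm6sf2 was called in neither genotype (-0.22, edgeR adjusted p = 0.147, and -0.19, edgeR adjusted p = 0.256).

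**Figure D4:**
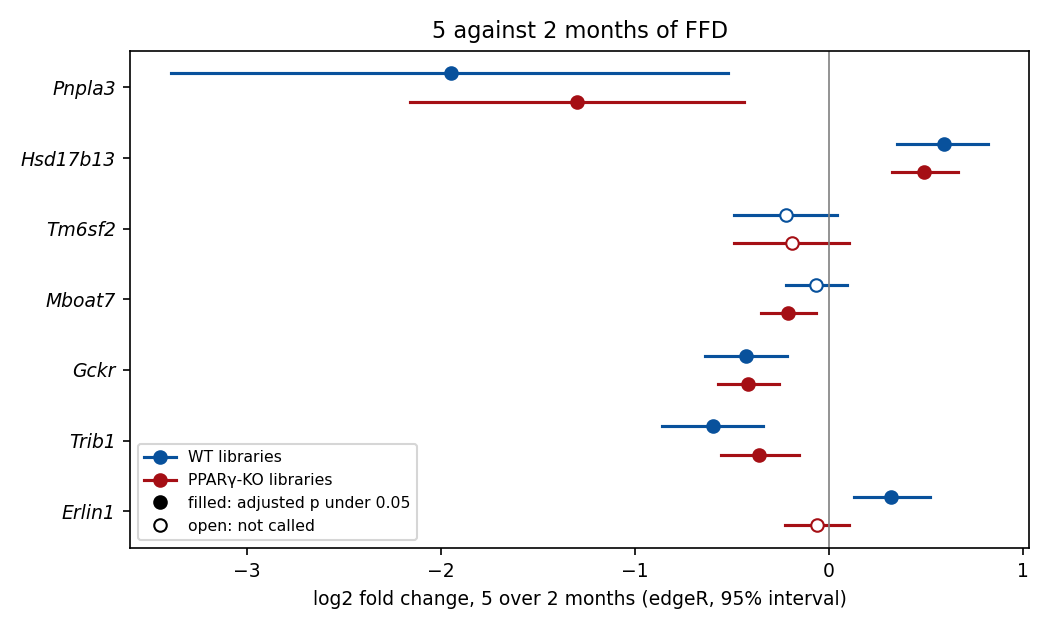
Log2 fold change of 5 over 2 months of FFD for each gene in WT and in PPARγ-KO libraries, with the 95% interval of the edgeR fit; filled points passed an adjusted p of 0.05. Hsd17b13 lies to the right of 0 and Gckr, Trib1 and Pnpla3 to the left in both genotypes.

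The paralogs and direct partners of the 7 proteins were followed in a list of 26 genes. At 5 months 11 of the 25 tested were called, 6 higher and 5 lower in PPARγ-KO libraries, where 18.4% of all genes were called. At 2 months 3 of 24 were called, 1 higher and 2 lower, where 3.56% of all genes were called. Their median log2 fold change was 0.123 at 5 months and -0.0641 at 2 months, beside -0.00577 and -0.00483 over all genes. Among the hexokinases, Hk2 was lower at both times (-2.0, edgeR adjusted p = 0.00776, and -1.90, edgeR adjusted p = 0.000133) and Hk3 at 5 months (-1.25, edgeR adjusted p = 0.0171).

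Among the partners of PNPLA3, Pnpla2, the main triglyceride lipase, was lower at 2 months, from 93.5 ± 3.13 to 60.8 ± 7.88 CPM (log2 fold change -0.62, edgeR adjusted p = 0.00963), and was at 67.0 ± 4.63 and 58.6 ± 4.57 CPM at 5 months (edgeR adjusted p = 0.114). G0s2, an inhibitor of that lipase, was lower at 5 months, from 113 ± 10.7 to 81.6 ± 4.16 CPM (-0.45, edgeR adjusted p = 0.00104). Abhd5, its activator, was called at neither time. The ratio of Pnpla3 to Pnpla2 per kilobase was 0.328 ± 0.161 in WT and 0.653 ± 0.234 in PPARγ-KO libraries at 2 months, and 0.12 ± 0.0607 and 0.282 ± 0.0427 at 5 months, when it was higher in every PPARγ-KO library. Pnpla5, a paralog beside Pnpla3 on the chromosome, was higher at 5 months, from 2.2 ± 0.572 to 6.12 ± 1.18 CPM (1.48, edgeR adjusted p = 0.000633).

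Hsd17b11, the paralog next to Hsd17b13, was lower at 5 months, from 359 ± 29.7 to 273 ± 17.5 CPM (log2 fold change -0.39, edgeR adjusted p = 0.00337), beside -0.36 for Hsd17b13 itself. Mttp, the transfer protein that loads lipid onto apolipoprotein B, was higher at 5 months (0.29, edgeR adjusted p = 0.0133), Apob was called at neither time, and Tm6sf1, the paralog of Tm6sf2, was lower at 5 months (-0.91, edgeR adjusted p = 0.0389) at 4.38 ± 0.924 and 2.33 ± 0.867 CPM. Among the partners of TRIB1, Cebpb was higher at 5 months (0.34, edgeR adjusted p = 0.0097), while Cebpa, Cop1, Trib2 and Trib3 were called at neither time. Around ERLIN1, Insig1, whose protein holds back SREBP when sterols are plentiful, was higher at 5 months, from 189 ± 3.48 to 426 ± 39.0 CPM (1.18, edgeR adjusted p = 1.08e-06). Erlin2 and Rnf170, whose proteins ERLIN1 works with directly, were called at neither time, nor were Lpcat3, a relative, and Tmc4, a neighbour of Mboat7. Mboat1 was too low to test at 2 months and not called at 5 months, and Mboat2 was too low to test at both times.

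**Figure D5:**
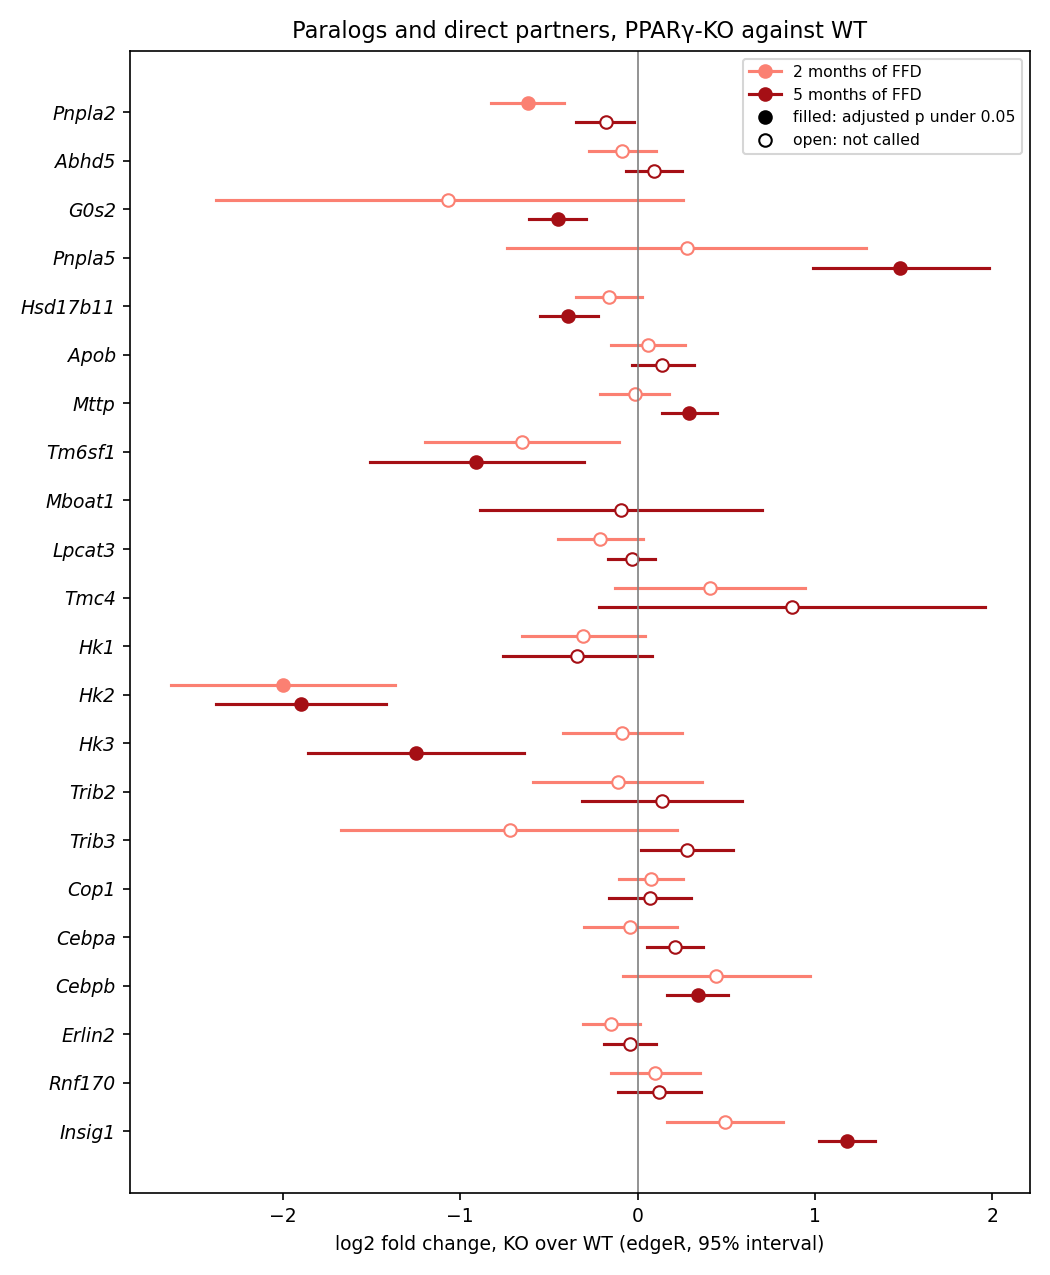
Log2 fold change of PPARγ-KO over WT libraries for paralogs and direct partners, at 2 and 5 months, with the 95% interval of the edgeR fit; filled points passed an adjusted p of 0.05. Pnpla5 and Insig1 lie furthest to the right at 5 months and Hk2 furthest to the left at both times.

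Of 14 transcription factors and cofactors known to act on hepatic lipid genes, 7 were called at 5 months and 2 at 2 months, all higher in PPARγ-KO libraries, where 8.9% and 1.78% of all genes were called higher. Their median log2 fold change was 0.244 at 5 months and 0.179 at 2 months. Pparg, the targeted gene, was counted in this list and was called at both times. The other factor called at 2 months was Mlxipl. Mlxipl, which encodes ChREBP, was higher at both times, from 332 ± 34.1 to 459 ± 22.3 CPM at 2 months (SD, n = 3, log2 fold change 0.46, edgeR adjusted p = 0.0267) and from 145 ± 19.6 to 197 ± 23.5 CPM at 5 months (0.45, edgeR adjusted p = 0.024). Srebf1, the gene of SREBP-1, was called at neither time, at 1110 ± 187 and 1120 ± 197 CPM at 2 months and 738 ± 16.4 and 594 ± 109 CPM at 5 months. The other factors called at 5 months besides Pparg were Ppara (0.45), Srebf2 (0.34), Hnf4a (0.28), Nr0b2 (1.12) and Ppargc1a (1.32), with edgeR adjusted p-values of 0.00125, 0.0132, 0.0151, 2.57e-06 and 4.65e-06. With time, Srebf1 and Mlxipl fell in both genotypes (-0.59 and -1.20 in WT, -0.92 and -1.22 in PPARγ-KO libraries), as Pnpla3 did. Of all genes, 22.7% were called lower with time in WT and 22.2% in PPARγ-KO libraries. A link between these falls was not tested.

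A list of 31 other genes linked to fatty liver or liver enzymes in people was counted in the same way. Of the 30 tested, 11 were called at 5 months, 8 higher and 3 lower in PPARγ-KO libraries, beside 18.4% of all genes. At 2 months 1 of the 30, Mlxipl, was called, near the 3.56% of all genes. The median log2 fold change of the list was 0.0751 at 5 months and 0.0493 at 2 months. The largest rises at 5 months were Lpin1, a phosphatidate phosphatase, from 88.7 ± 8.64 to 394 ± 41.2 CPM (log2 fold change 2.16), Gpam, the first acyltransferase of glycerolipid synthesis (1.39), and Ppp1r3b, a glycogen-targeting subunit of protein phosphatase 1 (1.03). The largest falls were Parvb (-0.70), Ucp2, a mitochondrial carrier (-0.64), and Abcb4, the phospholipid exporter of bile (-0.36).

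The nearest protein-coding gene on each side of each of the 7 genes that did not overlap it was examined, 14 in all, of which 13 could be tested. Tsen34, which overlaps Mboat7, was therefore not among them. At 5 months 4 of the 13 were called, beside 18.4% of all genes. Pnpla5 (log2 fold change 1.48) beside Pnpla3 and Hapln4 (0.41) beside Tm6sf2 were higher in PPARγ-KO libraries, and Hsd17b11 (-0.39) beside Hsd17b13 and Rps9 (-0.32) beside Mboat7 were lower. At 2 months edgeR called none of the 13, beside 3.56% of all genes, with 2 at an unadjusted p under 0.05 and 2 called by DESeq2. The neighbours not called at 5 months were Samm50 beside Pnpla3, Klhl8 beside Hsd17b13, Sugp1 beside Tm6sf2, Tmc4 beside Mboat7, Fndc4 and Zfp512 beside Gckr, Nsmce2 beside Trib1, and Cyp2c23 and Chuk beside Erlin1. The neighbour that could not be tested was 4933412E24Rik beside Trib1.

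The genes most like each of the 7 were ranked by Pearson's r of log2 normalized CPM over the 12 libraries among 9718 protein-coding genes with a mean of at least 5 CPM. They are given as a description, since the libraries share the differences between groups. For Pnpla3 they were Tcf4 (0.966), Dvl2 (0.949) and Nadsyn1 (0.943). For Hsd17b13 they were Snx5 (0.981), Nagk (0.979) and Krt18 (0.978), and for Gckr Fdxr (0.974), Hgfac (0.973) and Kcp (0.968). Mboat7 was most like Ern1 (0.952), Dgcr8 (0.946) and Nr3c1 (0.937), and Trib1 most like Vwf (0.959), Ddx55 (0.949) and Dcbld1 (0.944). The values were lower for Tm6sf2, with Ppfibp2 (0.904) and Crkl (0.898), and for Erlin1, with Crem (0.882), Nfkbia (0.88) and Lcp1 (0.843).

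With the rule of an unadjusted p below 0.05 and a change of at least 1.3-fold, 2 of the 7 genes passed between genotypes at 2 months (Tm6sf2 and Gckr) and 3 at 5 months (Pnpla3, Tm6sf2 and Gckr), where 11.0% and 17.0% of all genes passed. Hsd17b13 and Erlin1 at 5 months had changes smaller than 1.3-fold. With time 4 passed in WT (41.1% of all genes) and 3 in PPARγ-KO libraries (36.0%), and Erlin1 passed for the difference between the times (10.3%).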

How the data were processed

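Total RNA was extracted from liver with TRIzol and sequenced by Novogene on an Illumina NovaSeq. The authors deposited raw read counts per gene, with identifier, name, coordinates and length. The study's methods name STAR and mm10, whereas the submitters' processing notes name HISAT2 and mm10. The counting program, annotation release and strand setting are not given in the sources used here. Gene names stored as spreadsheet dates (27) were restored from the identifier.

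Counts were joined by identifier, filtered with filterByExpr, scaled by TMM and tested with edgeR's robust quasi-likelihood F-test (two-sided, R 4.3.3, edgeR 4.0.16, limma 3.58.1), with Benjamini-Hochberg adjustment over all genes tested and a threshold of 0.05. Genotypes at each time, and times in each genotype, were compared in fits of their own 6 libraries, and the difference between times in a fit of all 12. Normalized CPM used TMM over the 12 libraries. The method was tested on simulated data. DESeq2 was version 1.42.0.

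The 7 genes, the gene lists and the tests were chosen with earlier results of these data known. Named besides the 7 genes were Pparg, the partners, regulators and nearest neighbours, at most 3 rises and 3 falls of the other risk genes, and the 3 genes most alike; some of these genes are counted but their values are not reported here. Alternatives were DESeq2 and its size factors, scaling by library size only, no filter or a minimum of 10 counts per library, the study's rule of an unadjusted p below 0.05 with 1.3-fold, all 12 libraries in one fit, the replicate number as a block, and each library left out. Same-numbered libraries of the 2 genotypes correlated at 0.194, 0.272 and 0.141 at 2 months, once group means were removed over the 5000 most abundant genes. Differently numbered libraries of the 2 genotypes gave -0.251 to 0.0928 at that time. At 5 months same-numbered libraries gave -0.0675, -0.0542 and -0.182, and differently numbered ones -0.0629 to 0.156. Libraries of different times reached similar values, such as 0.295 for PPARγ-KO replicate 2 at both times. PPARγ-KO replicate 3 at 2 months and replicate 1 at 5 months gave 0.232. The labels name no pairs. The main fits paired no libraries, and the replicate block was used only as an alternative.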

Additional observations from a re-analysis of the deposited data

Results flagged for a closer look

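In the fit of all 12 libraries, edgeR called 1.57% of 15127 genes for a change in the genotype difference between 2 and 5 months. Among the risk gene orthologs, their direct partners, the regulators and the other risk genes, 2 were called, Pparg and Atp7b. The log2 fold change of Pparg in libraries labelled PPARγ-KO was larger at 5 months by 0.62 (edgeR adjusted p = 0.0432), a call lost with library size alone and without any of 9 of the 12 libraries (0.55 to 0.76). That of Atp7b, the copper transporter behind Wilson disease, was larger by 0.51 (edgeR adjusted p = 0.0229). Atp7b was the only one of 30 other risk genes called for this difference and was picked out after its values were seen. It was at 53.5 ± 3.92 CPM in WT and 49.9 ± 3.04 CPM in PPARγ-KO libraries at 2 months, and at 32.8 ± 1.22 and 43.6 ± 2.24 CPM at 5 months (SD, n = 3).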

How the results depend on the processing

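Over the 7 genes, 5 comparisons and their alternatives gave 490 fold changes, of which 431 kept their direction and side of the threshold, 41 lost and 7 gained a call, and 11 changed sign, none of these 11 being called in either fit. Between genotypes at 2 months the number of genes called (1) was 0 with library size alone, 3 without a filter, 2 by DESeq2, 2 with the replicate block, 2 by the rule of an unadjusted p and 1.3-fold, and 0 to 2 with a library left out. At 5 months (5) it was 3 in the fit of all 12 libraries, 3 by that rule, and 2 to 4 with a library left out, every omission except that of WT replicate 2 leaving 3 or fewer. With time in PPARγ-KO libraries (5) it was 3 by that rule and 3 to 4 with a library left out, 3 without replicate 1 at 2 months or replicate 1 or 2 at 5 months. For the difference between the times (0) it was 1 without a filter (Erlin1, -0.40, edgeR adjusted p = 0.0291) and 1 by that rule. With library size alone Mboat7 at 5 months turned to -0.02. For the difference between the times, leaving out a library gave -0.19 to 0.0057 for Hsd17b13, -0.1 to 0.18 for Tm6sf2 and -0.06 to 0.078 for Gckr. Among the 7 genes the replicate block changed no call other than that of Tm6sf2 at 2 months. The cause of these shifts was not tested. Pnpla3 had the lowest counts of the 7 genes, 31 to 644 in a library.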
